A study of Mus musculus with 2 samples.

Results

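The genes described here encode 9 subunits of the neuronal nicotinic acetylcholine receptors: Chrna2, Chrna3, Chrna4, Chrna5, Chrna6, Chrna7, Chrnb2, Chrnb3 and Chrnb4. They were chosen by name, and all 9 were found among the 24015 gene symbols counted. Nicotinic receptors are pentameric cation channels that open when acetylcholine binds where an alpha subunit meets its neighbour, while other subunits take accessory positions. Before the eyes open, starburst amacrine cells release acetylcholine onto ganglion cells and onto each other, and the resulting waves of activity spread across the retina. Mice that lack the Chrnb2 subunit lose the normal form of these waves, and the terminals of their ganglion cells are refined less precisely in the brain.

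RNA came from J-RGCs, a ganglion cell type of the mouse retina, at postnatal day 6. A transgenic line that labels this type gave the cells green fluorescent protein, and magnetic beads and then flow cytometry isolated them. The only group held 2 libraries, A and B, each a pool of 5 to 6 animals from its own litter. The strain, the driver of the transgene and the sex of the animals have no entry in the labels used here. The definition of the cells rests on that 1 line, and a pool hides differences between animals.

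Gene counts summed to 7916204 in A and to 13744313 in B. The labelled type was checked first. Jam2, the adhesion molecule that marks J-RGCs, stood at 2344 counts per 1000000 gene counts (CPM) in A and 1203 CPM in B, and Tbr1, a transcription factor of these cells, at 60.9 CPM in A and 91.2 CPM in B. All 9 ganglion cell markers were at 100 CPM or more in both libraries, against 6.53% of all gene symbols. Their levels summed to 10190 CPM in A against 14497 CPM in B, while Jam2 was higher in A. Transcripts of other cells were present too, since 5 of 7 microglial markers reached 1 CPM in both libraries, against 46.8% of all gene symbols. Levels of the 7 markers summed to 269 CPM in A against 332 CPM in B. In such bulk RNA, fewer cells of a type and less RNA per cell cannot be told apart.

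J-RGCs carried RNA for most of the neuronal nicotinic subunits, led by Chrnb3 and Chrna3 and followed by Chrna6, Chrna4 and Chrnb2. Of the 9 genes, 8 were detected, meaning at least 1 CPM in both libraries, against 46.8% of all gene symbols. In both libraries 6 of the 9 reached 10 CPM, against 27.8% of all symbols, and 3 reached 100 CPM, against 6.53% of all symbols. The median of the 9 genes came to 93.7 CPM in A against 72.4 CPM in B, beside 0.758 CPM in A against 1.89 CPM in B over all symbols. Together the 9 genes took 10740 counts in A and 23897 counts in B.

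Chrnb3 encodes an accessory subunit that assembles with Chrna6 in visual pathway receptors. It had 4638 counts in A and 10259 in B, which are 586 and 746 CPM, and its mean of 666 ± 114 CPM (SD, n = 2 libraries) ranked 218 among all symbols. Chrna3, an agonist-binding subunit best known from autonomic ganglia, had 351 CPM in A and 509 CPM in B, from 2775 and 7001 counts. Both genes had the higher CPM in B.

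Chrna6 encodes an agonist-binding subunit that is enriched in ganglion cells and in midbrain catecholamine neurons. It stood at 115 CPM in A and 207 CPM in B, from 908 and 2841 counts. Chrna4, which forms with Chrnb2 the commonest high-affinity nicotinic receptor of the brain, stood at 93.7 CPM in A and 165 CPM in B, from 742 and 2264 counts. These genes, like Chrnb3 and Chrna3, were higher in B. Chrnb2, the subunit that normal waves depend on, went the other way, with 176 CPM in A and 72.4 CPM in B, from 1397 and 995 counts. Its mean of 124 ± 73.6 CPM (SD, n = 2) thus describes neither library well.

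The remaining subunits were lower than these. Chrnb4, which completes the ganglionic receptor together with Chrna3, had 26.4 CPM in A and 27.2 CPM in B, from 209 and 374 counts, the closest pair of values among the 9 genes. Chrna7, whose subunit forms receptors by itself and passes much calcium, had 7.71 CPM in A and 6.77 CPM in B, from 61 and 93 counts. Chrna5, an accessory subunit, rested on 8 counts in A and 59 in B, which are 1.01 CPM (exact 95% interval for counting error 0.436 to 1.99) and 4.29 CPM (3.27 to 5.54). It therefore sat on the detection threshold in A. Chrna2, an agonist-binding subunit with a narrow distribution in the brain, had 2 counts in A and 11 in B, which are 0.253 and 0.80 CPM. Its count in A lay under the floor of 3 counts, which corresponds to 0.379 CPM there. Both values were under 1 CPM, so Chrna2 was not detected by the threshold used.

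**Figure D1:**
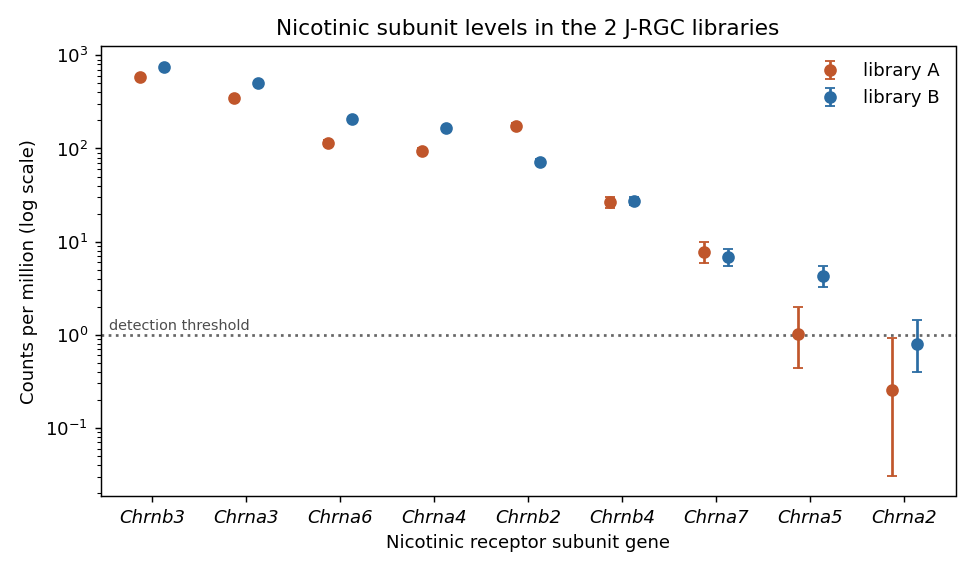
Level of each subunit gene in library A (left point of each pair) and library B (right point), in CPM on a log axis, with exact 95% intervals for counting error; where no bar is seen the interval is smaller than the point. Chrnb3 at 586 and 746 CPM leads, Chrnb2 is the gene with clearly higher values in A, and Chrna2 lies under the dotted line at 1 CPM in both libraries.

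Since a longer transcript collects more reads, genes were compared with each other per kilobase of merged exons. On this scale Chrnb3 (92.0 in A and 117 in B, in CPM per kilobase) and Chrna3 (66.6 in A and 96.7 in B) led again, and the shorter Chrna6 came nearer to them (39.5 in A and 71.1 in B). Chrna4 followed with 18.7 in A and 32.8 in B, Chrnb2 with 21.1 in A and 8.64 in B, and Chrnb4 with 7.09 in A and 7.31 in B. Chrna7 had 1.71 in A and 1.5 in B, Chrna5 0.323 in A and 1.37 in B, and Chrna2 0.0667 in A and 0.211 in B. The order of the 9 genes was the same in both libraries, apart from Chrnb2, which stood above Chrna4 in A and beneath it in B.

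Most neighbours in that order were not separated from each other. The ratio of Chrnb3 over Chrna3 was 1.28 with a 95% interval of 0.478 to 3.43, which joins counting error to the spread that edgeR estimated between the libraries. Chrna3 over Chrna6 gave 1.48 (0.584 to 3.73), so the order of the 3 leading subunits was not resolved. Chrna6 over Chrna4 gave 2.15 (0.898 to 5.15), which does not set Chrna4 apart from them either, and Chrna4 over Chrnb2 gave 1.73 (0.728 to 4.13). That last ratio was 0.886 in A and 3.80 in B, so the library decided which of these partners was higher, and without library A the interval excluded 1. Chrnb2 over Chrnb4 gave 2.06 (0.840 to 5.05), and Chrna7 over Chrna5 gave 1.87 (0.596 to 5.88).

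Of the 8 neighbouring pairs, 2 had intervals that excluded 1. Chrnb4 over Chrna7 was 4.46 (1.54 to 12.9), and Chrna5 over Chrna2 was 5.68 (1.62 to 19.9). Neither separation held in every setting. With lengths of the longest transcript the log2 ratio of Chrnb4 over Chrna7 was 1.48, against 2.16 with merged exons, and its interval then included 0. With dispersions estimated per gene, the interval of Chrna5 over Chrna2 included a ratio of 1. Chrna2 had no estimate of its own there and took the largest one of any gene. Without library B both intervals, this one and that of Chrnb4 over Chrna7, included a ratio of 1.

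Wider steps in the order were clearer. Chrna3 exceeded Chrnb4, its partner in the ganglionic receptor, 11.3-fold (4.39 to 29.2), and Chrna7 50.5-fold (17.1 to 149). Chrnb3 exceeded Chrnb2 7.04-fold (2.76 to 18.0). Chrna3 exceeded Chrnb2 5.50-fold (2.19 to 13.8), although the ratio was 3.16 in A and 11.2 in B and its interval included 1 without library B. Chrna3 exceeded Chrna4 3.17-fold (1.26 to 7.96), with an interval that included 1 when either library was left out. Chrnb3 over Chrna6 was 1.89 (0.737 to 4.85), and this ratio moved with the length used: its log2 was 0.92 with merged exons, 1.39 with the longest transcript, 2.14 with coding lengths and 2.05 without a length correction, and the last 3 intervals excluded 0. With coding lengths or no correction the interval of Chrna3 over Chrna6 excluded a ratio of 1 as well, and that of Chrnb2 over Chrnb4 did so in those settings and with the longest transcript.

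**Figure D2:**
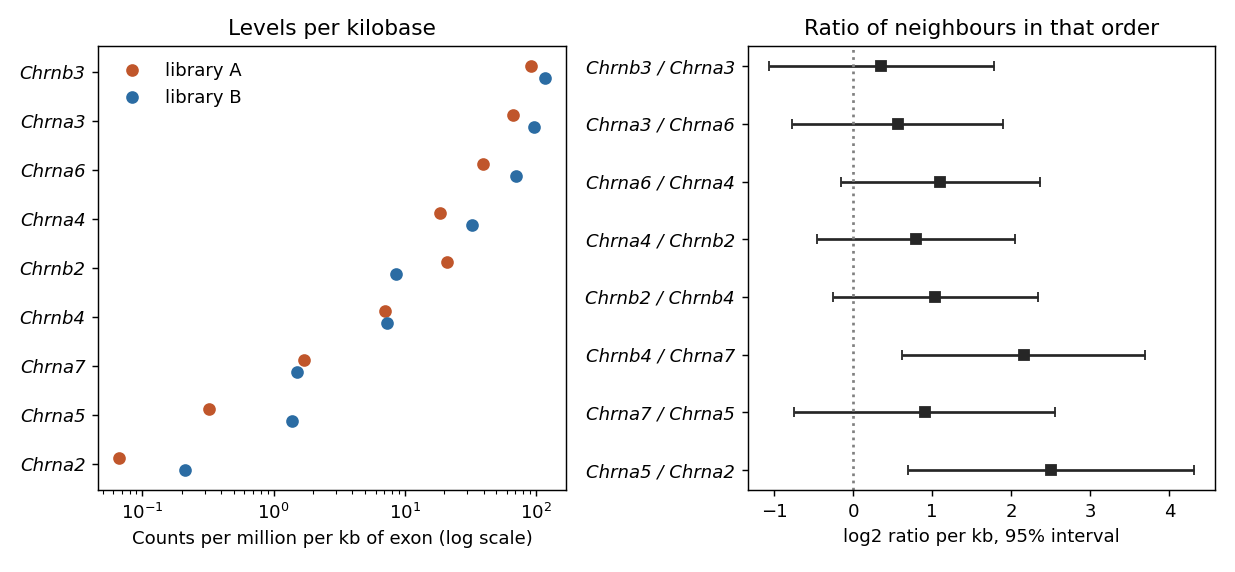
Left, level per kilobase of merged exons for each gene in library A (upper point) and library B (lower point), on a log axis. Right, log2 ratio of each gene over the next one in that order, with the 95% interval from counting error and the spread between libraries; only Chrnb4 over Chrna7 and Chrna5 over Chrna2 have intervals that exclude 0.

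As shares of the family's summed level per kilobase, Chrnb3, Chrna3 and Chrna6 together made up 80.2% in A and 84.6% in B. Chrnb3 alone was 37.2% in A and 34.8% in B, Chrna3 27.0% in A and 28.7% in B, and Chrna6 16.0% in A and 21.1% in B. These shares do not depend on the library total. Chrna4 was 7.56% in A and 9.74% in B, and Chrnb2 was 8.53% in A and 2.56% in B. The alpha genes summed to 51.4% in A and 60.5% in B, and the beta genes to 48.6% in A and 39.5% in B. The alpha share depended on the length used, since its mean over the libraries was 55.9% with merged exons and 45.2% with coding lengths.

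**Figure D3:**
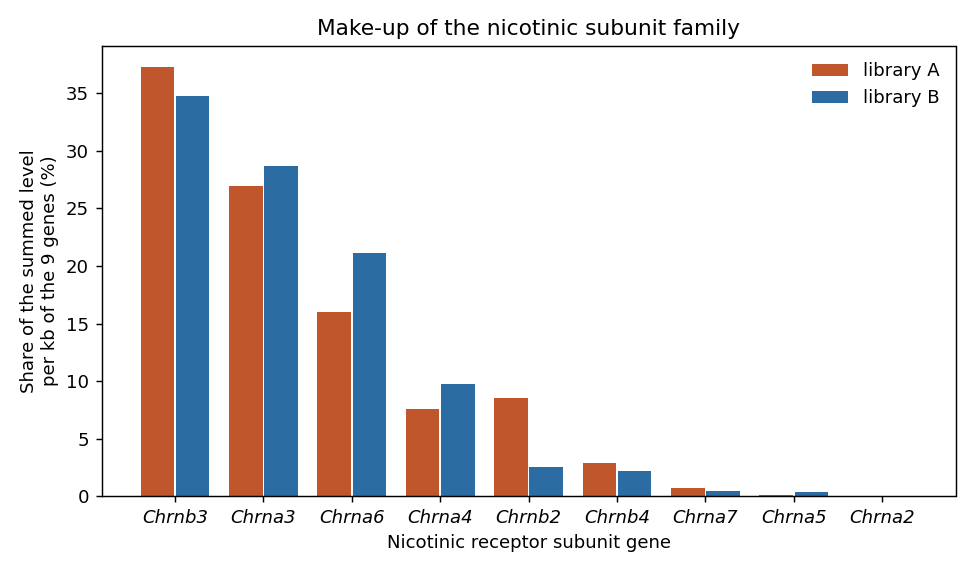
Share of each gene in the summed level per kilobase of the 9 subunit genes, in percent, for library A (left bar) and library B (right bar). Chrnb3, Chrna3 and Chrna6 hold 80.2% in A and 84.6% in B, and the largest relative gap among the better expressed genes is that of Chrnb2, at 8.53% in A and 2.56% in B.

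Several of these genes lie side by side in the genome. In the annotation Chrnb3 and Chrna6 are neighbours on chromosome 8, on opposite strands, and Chrna5, Chrna3 and Chrnb4 follow each other on chromosome 9, with Chrna5 on the strand opposite to the other pair. The chromosome 8 pair made up 53.2% of the family's level per kilobase in A and 55.9% in B. The ratio of its members, Chrnb3 over Chrna6, was 1.89 with merged exons and larger with the other lengths, as given above. The chromosome 9 cluster made up 30.0% in A and 31.3% in B, but its members were far apart, as Chrna3 exceeded Chrna5 94.5-fold (33.4 to 267), a ratio of 206 in A and 70.5 in B. Chrnb4 exceeded Chrna5 8.35-fold (3.02 to 23.1). In RefSeq the spans of Chrna3 and Chrna5 overlap, while in GENCODE they do not. How reads in such an overlap were counted is not known, and its effect on the Chrna5 ratios was not tested. The other subunit genes are scattered, with Chrna4 on chromosome 2, Chrnb2 on 3, Chrna7 on 7 and Chrna2 on 14.

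The genes outside the clusters' edges had levels of their own. Psma4, a proteasome subunit gene beside Chrna5, stood at 91.7 CPM in A and 92.8 CPM in B, and Ube2q2, a ubiquitin-conjugating enzyme gene beside Chrnb4, at 97.9 CPM in A and 53.4 CPM in B. Tex24, beside Chrnb3, had no count in A and 10 counts in B. Psma4 was alike in the libraries, while Ube2q2 was higher in A by less than 2-fold.

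The 250 bases before the transcript starts of the chromosome 9 genes are shown because these 3 neighbours differ so much in level. They come from RefSeq on GRCm38.p6, each in the direction of its gene, at chr9:55026563-55026812 (minus strand) for Chrna3, chr9:55048545-55048794 (minus strand) for Chrnb4, and chr9:54980630-54980879 and chr9:54981238-54981487 (plus strand) for 2 annotated starts of Chrna5. Capitals mark the GC box, GGGCGG or its reverse complement.
Chrna3: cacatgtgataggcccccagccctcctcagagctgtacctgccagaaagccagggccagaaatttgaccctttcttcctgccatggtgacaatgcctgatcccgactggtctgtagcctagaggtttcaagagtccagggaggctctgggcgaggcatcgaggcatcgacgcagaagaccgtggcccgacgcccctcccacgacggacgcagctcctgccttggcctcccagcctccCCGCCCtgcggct
Chrnb4: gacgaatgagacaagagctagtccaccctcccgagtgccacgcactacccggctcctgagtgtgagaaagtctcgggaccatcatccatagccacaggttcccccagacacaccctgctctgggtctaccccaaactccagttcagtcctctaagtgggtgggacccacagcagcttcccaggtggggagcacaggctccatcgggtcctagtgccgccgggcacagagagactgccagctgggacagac
Chrna5, upstream start: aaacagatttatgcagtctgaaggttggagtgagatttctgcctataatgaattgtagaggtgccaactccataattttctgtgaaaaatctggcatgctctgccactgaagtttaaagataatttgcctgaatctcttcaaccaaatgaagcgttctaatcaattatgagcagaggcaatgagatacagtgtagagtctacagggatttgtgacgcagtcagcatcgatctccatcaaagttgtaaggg
Chrna5, downstream start: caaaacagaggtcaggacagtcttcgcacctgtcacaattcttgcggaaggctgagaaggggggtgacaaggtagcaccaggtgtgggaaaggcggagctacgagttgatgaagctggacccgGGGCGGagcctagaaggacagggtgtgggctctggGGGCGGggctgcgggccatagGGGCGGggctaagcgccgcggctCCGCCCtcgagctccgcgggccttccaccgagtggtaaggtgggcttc
The downstream start of Chrna5, the low gene, had 4 GC boxes and a GC content of 65.2%, and its upstream start had 0 and 40%. Chrna3 had 1 GC box at a GC content of 63.2%, and Chrnb4 had 0 at 61.2%.

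The RefSeq table held 7 such sequences for 6 of the 9 genes, Chrna2, Chrna6 and Chrnb3 being the others. Chrna4 had 3 GC boxes, Chrna7 had 1 and Chrnb2 had 0. The GC box occurred in 32.7% of the 32851 promoter windows of that size. TATAAA, searched on both strands, was in none of the 7 windows and in 12.4% of all windows, and CCAAT, searched likewise, was in none of the 7 and in 33.9% of all. CCAAT can share bases at its ends with the GC box or with TATAAA. These are matches of letters, and the annotation does not say which start these cells used.

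Differences between the libraries were larger than counting error for many genes of the table. By an exact two-sided binomial test of the counts, taking as thresholds a Benjamini-Hochberg adjusted p of 0.05 and a 2-fold difference, 42.6% of 14107 genes with at least 10 counts differed between A and B. Among the 9 subunit genes 2 did, and 6 were within 2-fold. Higher in A was Chrnb2, against 10.3% of all genes tested, and higher in B was Chrna5, against 32.3%. With the TMM scaling of edgeR the same genes were called, against backgrounds of 14.9% and 22.4%. The test compares these libraries only and bears on no condition.

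Chrnb2 was 2.44-fold higher in A (log2 1.29, adjusted p = 1.9e-102 by the exact binomial test), and the log2 ratio was 1.68 with TMM scaling. Of the 7767 genes with a mean of at least 10 CPM and reads in both libraries, 19.1% were at least as far apart as Chrnb2 in either direction, and 7.52% in its direction. By reads, Chrnb2 took 13.0% of the family's counts in A (exact binomial 95% interval 12.4 to 13.7) and 4.16% in B (3.91 to 4.42). The gene that overlaps it did not share its direction past the threshold: Adar, an RNA editing enzyme gene on the opposite strand, shares 1365 exon bases with Chrnb2 and stood at 71.1 CPM in A and 67.4 CPM in B (adjusted p = 0.375, exact binomial test). Of the windows of 50 bases along Chrnb2, 14.2% also occur in Adar, so reads there cannot be assigned without knowing how strand was used in counting.

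The summed levels of some marker lists of other cells were higher in A too, and those of others were higher in B. The counts of called markers below stand beside 10.3% of all genes tested called higher in A and 32.3% higher in B. Of the 9 ganglion cell markers, 0 were called higher in A and 2 higher in B, Thy1 and Pou4f2. Of the 6 endothelial and mural markers, 2 were called higher in A and 3 higher in B, and the list summed to 397 CPM in A against 113 CPM in B. The sum was carried by the pericyte gene Rgs5, at 342 CPM in A and 82.4 CPM in B. Pdgfrb, another mural gene, was the second called higher in A, at 51.9 CPM in A and 10.3 CPM in B. The 3 called higher in B were the endothelial genes Pecam1 (5 counts in A and 40 in B), Cdh5 (7 and 119) and Tek (13 and 113). Cldn5, a defining endothelial marker, had 0 counts in A and 1 in B. Of the 4 cycling-cell markers, 1 was called higher in A, Mki67, and the list summed to 166 CPM in A and 79.4 CPM in B. Of the 5 bipolar cell markers, 1 was called higher in A and 1 higher in B, and the list summed to 230 CPM in A against 103 CPM in B. Most of that gap was in Grm6, at 96.4 CPM in A and 0.582 CPM in B, and the defining marker Cabp5 had 0 counts in A and 2 in B. The other amacrine list summed to 399 CPM in A against 476 CPM in B, the Mueller glia list to 220 CPM in A against 254 CPM in B, the horizontal cell list to 14.5 CPM in A against 30.5 CPM in B, and the cone list to 1.01 CPM in A against 3.06 CPM in B. The part of these other cells in the Chrnb2 difference was not tested.

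Chrna5 was 4.25-fold higher in B (log2 of A over B -2.09, adjusted p = 2.3e-05 by the exact binomial test, from 8 counts in A and 59 in B). With TMM scaling the log2 ratio was -1.70. Chrna6 (log2 -0.85), Chrna4 (-0.81), Chrna3 (-0.54) and Chrnb3 (-0.35) were lower in A by less than 2-fold. TMM scaling moved all log2 ratios up by 0.39, so that Chrnb3 stood at 0.04 and its direction turned, and Chrna3 at -0.15. Chrnb4 turned as well, with -0.04 by gene totals and 0.35 with TMM. Chrna7 had 0.19 by gene totals and 0.58 with TMM. The median over the 9 genes was -0.54, beside -0.35 over the 7767 genes, of which 70.1% were within 2-fold.

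**Figure D4:**
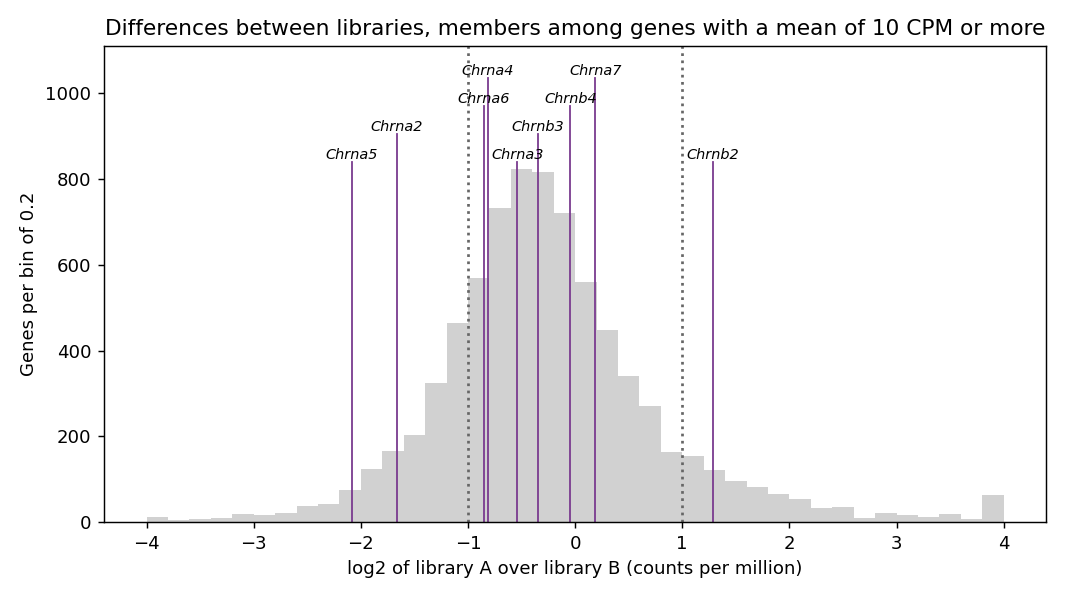
Grey bars count genes by log2 of library A over library B, for genes with a mean of at least 10 CPM and reads in both libraries (values past 4 in either direction are in the end bins); purple lines mark the 9 subunit genes and dotted lines 2-fold. Chrnb2 at 1.29 lies to the right of the bulk, Chrna5 at -2.09 and Chrna2 at -1.66 lie to its left on few counts, and the other 6 lie within 2-fold.

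Nicotinic genes were then placed among 58 subunit genes of receptors that are ion channels, per kilobase. By the mean over the libraries Chrnb3 ranked 3 and Chrna3 ranked 4. Chrna6 ranked 6, after the AMPA receptor gene Gria4, so 3 of the first 10 were nicotinic. Gabrb2, Glra2 of the glycine receptor, Gria2 and Gabra2 held the places from 7 to 10. Chrna4 ranked 11, Chrnb2 ranked 16 (12 in A and 20 in B), Chrnb4 ranked 23, and Chrna7, Chrna5 and Chrna2 ranked 31, 35 and 48. Without the length correction 2 of the first 10 were nicotinic.

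The family took 24.6% of the summed ion channel receptor level per kilobase in A and 32.5% in B. GABA-A receptor genes took 56.5% in A and 40.4% in B, and ionotropic glutamate receptor genes 13.7% in A and 18.4% in B. Fast transmitter receptors other than these were minor, with glycine and serotonin-gated subunits at 4.57% in A and 7.99% in B and P2X receptors at 0.688% in A and 0.788% in B.

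**Figure D5:**
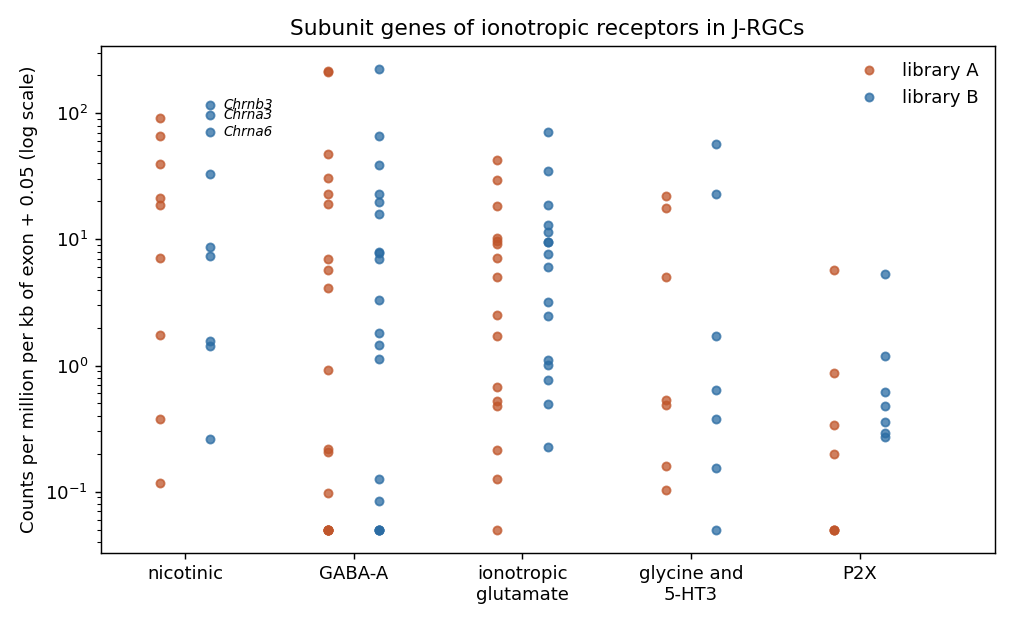
Level per kilobase of merged exons, plus 0.05 and on a log axis, of every subunit gene in 5 receptor families, with library A (left points) and library B (right points); names mark the 3 highest nicotinic genes by their mean. Chrnb3 at 92.0 in A and 117 in B is the highest nicotinic gene in both libraries.

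Of the remaining nicotinic subunits, those of muscle and hair cells, 1 of 7 was detected, against 46.8% of all symbols. It was Chrna1, the muscle alpha subunit, at 2.91 CPM in A and 5.09 CPM in B. The hair cell subunits Chrna9 and Chrna10 and the muscle subunits Chrng and Chrne had no count in either library, and Chrnd had 0 counts in A and 1 in B. Zero counts allow up to 0.379 CPM in A and 0.218 CPM in B. Chrnb1, the muscle beta subunit, named after its values were seen, was called higher in A, with 71 counts in A and 4 in B.

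The means to make acetylcholine were nearly absent. Chat, which synthesises acetylcholine, had 0 counts in A and 1 in B, and Slc18a3, which packs it into vesicles, had 1 count in A and 0 in B. Slc5a7, the choline transporter of cholinergic terminals, was at 3.16 CPM in A and 5.31 CPM in B. Of the 8 starburst amacrine markers 5 were detected, against 46.8% of all symbols. The list summed to 241 CPM in A against 404 CPM in B, most of it from Isl1 and Tmeff2. Isl1 is also a ganglion cell gene, and Sox2, like Chat and Slc18a3, had at most 2 counts in a library.

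Breakdown of acetylcholine was represented by Ache, acetylcholinesterase, at 28.7 CPM in A and 31.1 CPM in B. In the list of acetylcholine handling genes 4 of 8 were detected, against 46.8% of all symbols. Prima1, which anchors acetylcholinesterase in the membrane and was named after its values were seen, had 246 counts in A and 1 in B and was the gene called there, higher in A. Colq, its counterpart at the neuromuscular junction, had 1 count in each library.

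Muscarinic receptors, the G protein-coupled receptors for acetylcholine, were low. Of 5 genes 1 was detected, against 46.8% of all symbols. It was Chrm5, at 1.26 CPM in A and 1.24 CPM in B. Chrm3 had 1 count in A and 79 in B and was called higher in B. Chrm1 had 2 counts in A and 6 in B, Chrm2 had 0 in A and 4 in B, and Chrm4 had 0 in A and 1 in B. The summed muscarinic level, not corrected for length, came to 1.64 CPM in A against 7.79 CPM in B, beside 1357 CPM in A against 1739 CPM in B for the 9 nicotinic genes.

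Genes that help nicotinic receptors mature or tune them were well represented, with 11 of 12 detected, against 46.8% of all symbols. In both libraries 5 were at 100 CPM or more, against 6.53% of all symbols. Ric3, an endoplasmic reticulum chaperone of nicotinic receptors, had 228 CPM in A and 133 CPM in B. Lynx1, a membrane-anchored toxin-like protein that dampens them, had 209 CPM in A and 182 CPM in B, and its relative Lypd6 had 169 CPM in A and 223 CPM in B. Vsnl1, a calcium sensor that promotes the surface delivery of receptors with Chrna4, reached 1964 CPM in A and 2404 CPM in B. Ywhah, an adaptor protein that binds the Chrna4 subunit, had 652 CPM in A and 801 CPM in B.

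Tmem35, which encodes the receptor chaperone NACHO, was lower in A, at 7.20 CPM in A and 20.3 CPM in B. Of the 11 genes of the list with enough counts for the test, 4 differed, against 42.6% of all genes tested, with 1 higher in A (10.3% of all) and 3 higher in B (32.3% of all). Lypd1 was the gene higher in A, with 10.99 CPM in A and 1.53 CPM in B, and Ly6h and Lypd6b, like Tmem35, were higher in B. Lypd1, Ly6h and Lypd6b were named after their values were seen. Rapsn, the clustering protein of the muscle synapse, had 0 counts in A and 2 in B.

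Cyclic AMP signalling is tied to retinal waves and to the refinement of ganglion cell axons. Of its 13 listed genes 12 were detected, against 46.8% of all symbols. Adcy1, the calcium-stimulated adenylyl cyclase known for its part in retinal map refinement, stood at 1314 CPM in A and 1639 CPM in B. Prkacb, a catalytic subunit of protein kinase A, had 268 CPM in A and 502 CPM in B. Prkar1a, a regulatory subunit of that kinase, had 181 CPM in A and 366 CPM in B. Rapgef4, a cyclic AMP-activated exchange factor, had 169 CPM in A and 109 CPM in B. Of these 13 genes, all tested, 1 was called higher in A, against 10.3% of all genes tested, and 2 higher in B, Prkar1a among them, against 32.3%. Over the muscle and hair cell subunits and the 4 lists after them, 29 of 45 genes were detected, against 46.8% of all symbols.

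Among factors known to act on nicotinic subunit clusters or in ganglion cells that express them, 7 of 11 were detected, against 46.8% of all symbols. Pou4f1, a POU-domain factor of ganglion cells, stood at 416 CPM in A and 695 CPM in B, and its relative Pou4f2 at 486 CPM in A and 1011 CPM in B. Isl1, a LIM homeodomain factor, stood at 105 CPM in A and 188 CPM in B. Pou4f2 was called higher in B. Sox10, a factor reported to act on the rat Chrna3 and Chrnb4 promoters, had no count in either library, nor had Phox2a and Atoh7.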

How the data were processed

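Raw read counts by gene symbol, as deposited in 1 table for either library, were the starting point. Per the submitters' processing notes, mm9 was the build, and HTSeq 0.6.1, TopHat2 2.0.10 and Trimmomatic 0.32 were the tools. Annotation, counting settings and use of strand: not given in the sources used here. Reads were 26.8% (A) and 30.9% (B) assigned to genes; 54.3% and 47.9% lay outside features, 18.5% and 20.8% were not unique, and these lines were left out of totals.

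Counts were scaled to 1000000 gene counts (CPM). Exon lengths came from GENCODE M21, on a later build, for 98.3% of symbols, so no mm9 coordinates are given; promoters came from RefSeq, GRCm38.p6. With 1 group and no contrast, edgeR's quasi-likelihood test could not be used. Library A was set against library B with exact binomial tests (two-sided) and Benjamini-Hochberg adjustment over 14107 genes, and fold changes for calls used CPM + 0.5. Ratio intervals joined counting error to the trended dispersion of edgeR 4.0.16 (R 4.3.3) over 11272 genes (common biological coefficient of variation 0.507). Chrna2 was beneath edgeR's expression filter and took the largest dispersion. Both steps were tested on simulated data. Python 3.11.15, scipy 1.17.1 and DESeq2 1.42.0 (size factors) were also used.

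The members and lists were chosen with earlier results of these data known. All 9 members are named. Of the lists, genes at 100 CPM or more or at most 3 counts in both libraries, fixed key genes, all muscarinic receptors, genome neighbours and the 10 highest ion channel receptor genes could be named; some of these are not reported here. The libraries came from separate litters; reads carried no molecular identifiers, so intervals for counts cover counting error only. Alternatives were other scalings, thresholds, lengths, dispersions and leaving out each library.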

Additional observations from a re-analysis of the deposited data

How the results depend on the processing

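The number of subunit genes detected was 8 and lay between 7 and 8 under a threshold of 5 CPM, of 10 counts, TMM, DESeq2 size factors and with either library left out. The number that differed between the libraries was 2, stayed 2 under both scalings and other count minimums, and was 4 with a fold threshold of 1.5, when Chrna4 and Chrna6 were called too. Neighbouring pairs with an interval that excluded a ratio of 1 numbered 2, but 4 with coding lengths and 4 without length correction. With a dispersion per gene, where Chrna2 had none and took the largest of any gene, there was 1 such pair. Leaving out 1 library gave between 0 and 3 such pairs, 0 without B. The dispersion was kept there, so the interval is wider by construction. Directions turned for the A over B ratios of Chrnb3 and Chrnb4 under TMM and DESeq2 size factors, and for Chrna4 over Chrnb2, whose log2 was 0.79 with both libraries and -0.17 without B; none of these was past its threshold.

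No paired analysis was possible because the libraries form 1 group. With 1 library per litter, spread between animals cannot be told from that between preparations. Ratio intervals take the 2 genes as independent. Depth limits Chrna2 and Chrna5, at 2 and 8 counts in A.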
